A study of Homo sapiens with 6 samples.

Results

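The genes described here encode HLA class I molecules and the machinery that loads them with peptide. They were chosen by name: HLA-B, HLA-C, HLA-E and HLA-F, which encode heavy chains; B2M, the light chain; TAP1 and TAP2, the peptide transporter; TAPBP, the chaperone tapasin; and NLRC5, the transactivator of class I genes. All 9 symbols had a row among the 26485 of each count table. RNA was sequenced from AF22, an established human line of neural stem cells derived from induced pluripotent cells, in 6 libraries. The comparison is between 3 control libraries titled shControl with genotype WT and 3 libraries whose genotype is COMMD3/COMMD3-BMI1 knockdown. Both groups share the AF22 background, and the labels give neither the reagent used for the knockdown, nor the number of lines or clones, nor whether replicates were separate cultures, so that p-values reflect no more than how far the 6 libraries spread, possibly for technical reasons.

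Class I molecules present peptides from inside the cell on its surface. Peptides are cut by proteasomes, pumped into the endoplasmic reticulum by the TAP1-TAP2 transporter, trimmed by the aminopeptidases ERAP1 and ERAP2, and fitted into a heavy chain paired with B2M while tapasin bridges them to TAP. Interferons raise transcription of these genes through STAT and IRF factors, and NLRC5 raises it by joining the RFX, CREB/ATF and NF-Y factors on a promoter element called the SXY module. Neural cells are known for low class I levels at rest.

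The promoters of these genes are shown because the members are known to share such elements and because their transcripts moved in the same direction. RefSeq promoter windows, from 250 bases before to 50 after a gene start (GRCh38.p14), were matched by symbol for 7 of the 9 genes: HLA-B, HLA-C, HLA-F, B2M, TAP1 (2 windows), TAP2 and TAPBP. The 200 bases before the start are printed for 1 gene of each role, a heavy chain, the light chain, a transporter subunit and tapasin. They are written 5′ to 3′ on the strand of the gene. Capitals mark matches to the words named in the next paragraph.
HLA-B (chr6:31357180-31357379, minus strand): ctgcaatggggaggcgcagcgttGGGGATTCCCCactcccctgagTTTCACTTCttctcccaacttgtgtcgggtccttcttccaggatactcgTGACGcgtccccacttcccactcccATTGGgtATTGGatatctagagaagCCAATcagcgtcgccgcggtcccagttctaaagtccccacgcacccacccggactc
B2M (chr15:44711317-44711516, plus strand): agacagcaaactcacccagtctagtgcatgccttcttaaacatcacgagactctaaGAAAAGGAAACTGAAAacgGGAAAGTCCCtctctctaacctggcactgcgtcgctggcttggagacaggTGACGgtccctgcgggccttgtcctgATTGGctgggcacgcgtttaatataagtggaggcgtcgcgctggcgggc
TAP1 (chr6:32853705-32853904, minus strand): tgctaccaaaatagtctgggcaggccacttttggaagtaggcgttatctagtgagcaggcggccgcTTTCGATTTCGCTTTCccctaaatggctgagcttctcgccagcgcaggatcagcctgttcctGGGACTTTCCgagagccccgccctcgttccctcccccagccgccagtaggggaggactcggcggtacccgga
TAPBP (chr6:33314079-33314278, minus strand): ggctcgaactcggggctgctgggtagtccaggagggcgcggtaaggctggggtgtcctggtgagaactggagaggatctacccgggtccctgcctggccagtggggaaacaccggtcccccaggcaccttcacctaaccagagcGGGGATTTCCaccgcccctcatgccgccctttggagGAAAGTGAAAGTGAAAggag

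The words were searched on both strands. A GAAA word followed after any 2 bases by another GAAA, the core of the interferon-stimulated response element (ISRE), was found in 3.57% of 35116 RefSeq windows, and in those of 5 genes: HLA-F, B2M, TAP1, TAP2 and TAPBP. B2M, TAP1 and TAPBP each held 2 overlapping copies. HLA-B and HLA-C held TTTCACTTC, a match to the shortened form GAANNGAAA, which occurs in 7.66% of windows, as did TAP2 with GAAGCGAAA. The shortened form was added after the windows had been read. The kappa B motif of NF-kB was found in 11.3% of windows, and in those of HLA-B, HLA-C, B2M, TAP1 and TAPBP. CCAAT, the word of the Y box, and TGACG, of the CRE type, were found in 34.6% and 24.6% of windows. They stood together in the windows of HLA-B, HLA-C and B2M. The interferon-gamma-activated site word TTCNNNGAA, in 7.66% of windows, was found only in the second window of TAP1. A match is a description of these letters and no evidence of binding. The starts of TAP1 and PSMB9, an immunoproteasome subunit, lie 488 bases apart on opposite strands in RefSeq, so that the genes share the stretch between them. The principal transcripts of the 4 printed genes begin upstream of the RefSeq starts in GENCODE v29, so part or all of each stretch lies within a transcript there.

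**Figure D1:**
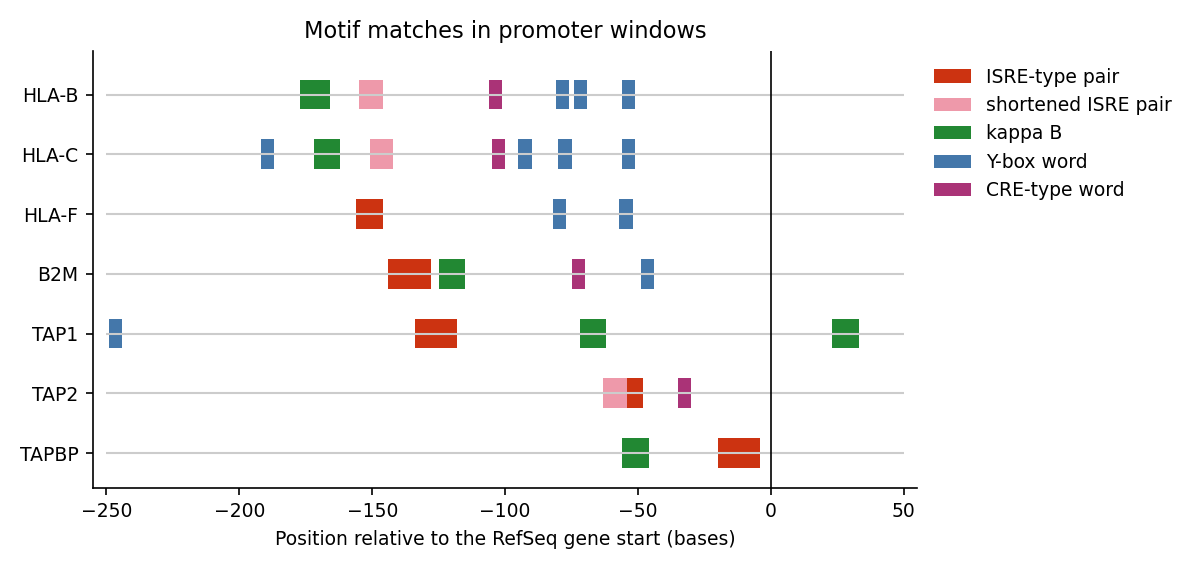
Positions of the motif matches in the promoter windows of 7 genes, in bases from the RefSeq gene start (vertical line). Each coloured block is a match on either strand; overlapping blocks are drawn over each other, TAP1 is shown by its first window, and ISRE-type matches lie before the start in HLA-F, B2M, TAP1, TAP2 and TAPBP.

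The libraries held between 7294687 and 11579849 counts. Levels are given as CPM, counts scaled to a fixed library total after TMM normalisation, and values after ± are SDs over the 3 libraries of a group (n = 3). Of the labelled targets, COMMD3 fell from 29.7 ± 2.04 to 11.6 ± 1.22 CPM, and the row of COMMD3-BMI1 was at 0 in all 6 libraries. How its reads were counted is not given, so this 0 need not mean an absent transcript. BMI1 had 110 ± 2.41 against 105 ± 1.80 CPM (adjusted p = 0.206 by edgeR). Of 10 leukocyte markers, the summed level was 3.78 to 5.60 CPM in control and 4.07 to 4.32 CPM in knockdown. CD68 led that sum, with 3.86 ± 0.956 and 3.62 ± 0.211 CPM, and was the only 1 tested (not called, edgeR adjusted p = 0.643). CD14 and AIF1 had a few counts in each library. PTPRC had 1 count in control and 0 in knockdown, and CD3E and MS4A1 were at 0 in all libraries. These 3 were picked for mention with their values known. Neural stem cell markers summed to between 2862 and 3049 CPM in control and between 2873 and 2974 CPM in knockdown, a sum led by VIM and NES. Of the 10 markers 3 (30%) fell and 1 (10%) rose, beside 18.1% and 15.3% of the 13632 genes tested. NOTCH1 fell from 160.5 ± 0.860 to 118 ± 12.3 CPM and HES1 from 66.5 ± 5.32 to 53.4 ± 1.05 CPM (adjusted p = 1.08e-07 and 0.000184 by edgeR). SOX2 fell from 288 ± 6.43 to 260 ± 8.20 CPM, a call lost without control replicate 2 or knockdown replicate 3 (edgeR adjusted p up to 0.0579), and MSI1 rose by 0.13 on the log2 scale with overlapping groups, a call lost without any library but knockdown replicate 3 (edgeR adjusted p up to 0.23). Endothelial markers summed to 137 to 145 CPM in control and 93.1 to 105 CPM in knockdown. Of 4 tested endothelial markers 3 (75.0%) were lower, beside the same 18.1%. Mesenchymal markers summed to 301 to 336 and 251 to 273 CPM. Of the 6, 3 (50%) were lower and 1 (16.7%) higher, beside 18.1% and 15.3%. Among those lower, the call of LUM was lost on leaving out any library but control replicate 3 (edgeR adjusted p up to 0.21). Neuronal markers summed to 631 to 681 and 588 to 614 CPM, and astrocyte markers to 316 to 343 and 297 to 311 CPM. Of 3 tested markers in each of these lists, 1 (33.3%) was lower, SYP (−0.93 on the log2 scale) and S100B (−0.62). Pluripotent markers summed to 224 to 234 and 206 to 226 CPM, and of 2 tested 1 (50%), POU5F1, was lower. The part of these marker differences in the results was not tested. In bulk RNA, more cells that express a gene and more of its RNA per cell cannot be told apart.

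Transcripts of 8 of the 9 genes were higher in knockdown cells, by very unequal folds. HLA-B, HLA-C, TAP1 and NLRC5 were between 10.9-fold and 17.2-fold higher, TAP2 was 5.37-fold higher, and HLA-E, B2M and TAPBP were between 1.30-fold and 1.84-fold higher. The remaining gene, HLA-F, was listed at 0 and not tested. The 8 rose by the quasi-likelihood test of edgeR (p adjusted by Benjamini-Hochberg, threshold 0.05), where 15.3% of the 13632 genes tested were higher and 18.1% lower, an order of shares that turned with library-size scaling. NLRC5 passed the filter on low counts only through the knockdown libraries, so that it had to differ. The other 7 reached the filter's count minimum in all 6 libraries. For the 8 genes every knockdown library lay above every control library, which held for 21.6% of all genes tested. A rise of at least 2-fold was called for HLA-B, HLA-C, TAP1, TAP2 and NLRC5, against 1.03% of all genes, and these 5 were among the 100 largest log2 fold changes. The median log2 fold change was 2.94 over the tested members and 0.00 over all genes tested. The counts of members above and their median include NLRC5. Among the other 7, the middle log2 fold change was that of TAP2, 2.43, and only HLA-B, HLA-C, TAP1 and TAP2 rose at least 2-fold.

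**Figure D2:**
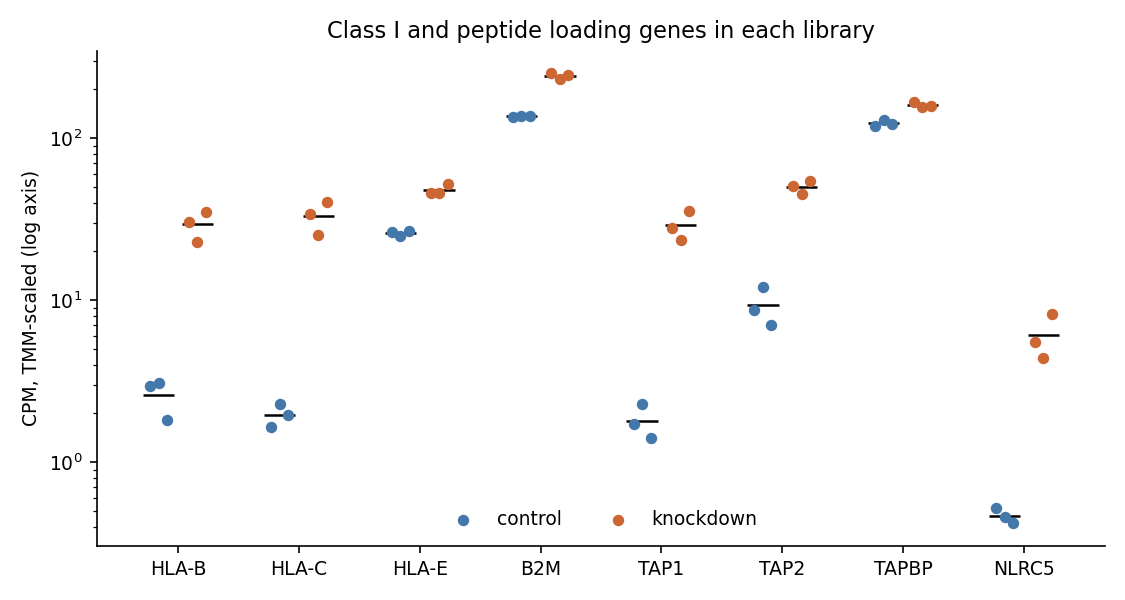
CPM of 8 genes in each of the 6 libraries on a log axis. Points are libraries, with control in blue and knockdown in orange, and black lines are the means of 3; the groups do not overlap for any gene, and the distance between them is widest for HLA-C and TAP1.

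**Figure D3:**
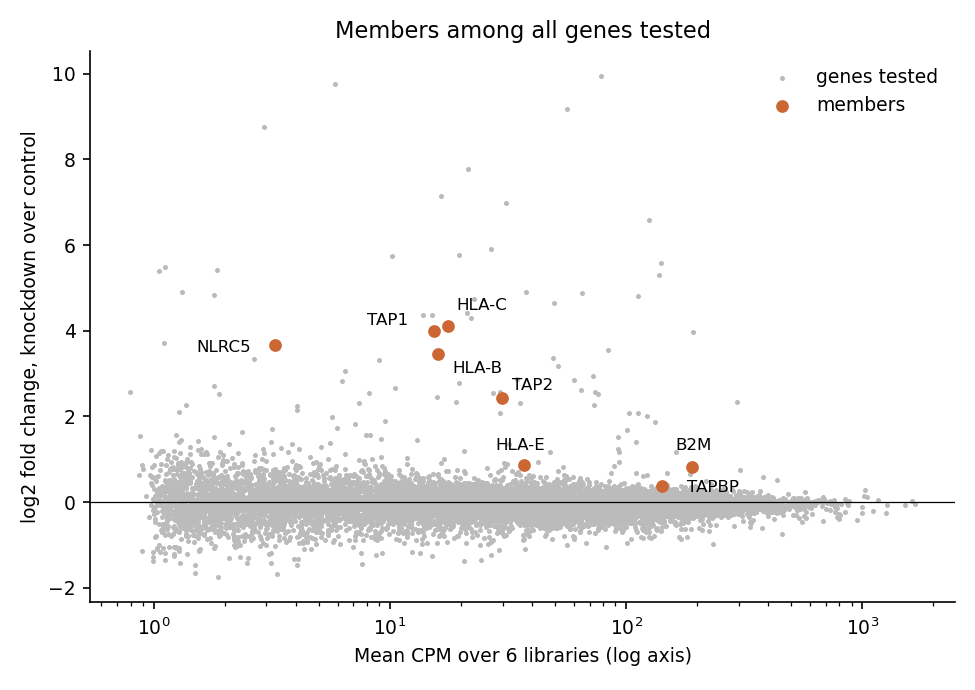
Mean CPM over the 6 libraries (log axis) against the log2 fold change, knockdown over control, for 13632 tested genes in grey and the 8 tested members in orange. HLA-C, TAP1, NLRC5, HLA-B and TAP2 lie far above the bulk of genes, while TAPBP (0.38) lies near its edge.

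The classical heavy chain genes HLA-B and HLA-C, whose products present peptides to T cells, had few counts in control cells. HLA-B lies on chromosome 6 at 31353872 to 31357187 (GRCh38, minus strand, principal transcript in GENCODE v29). Control replicates 1 to 3 held 34, 27 and 13 of its counts, and knockdown replicates 1 to 3 held 288, 195 and 342. These equal 2.94, 3.09 and 1.82 CPM against 30.2, 22.7 and 35.2 CPM. The lowest knockdown library was thus far above the highest control library. The log2 fold change was 3.45 (SE 0.173, adjusted p = 1.84e-16 by edgeR). From the summed counts, 74 and 825, the ratio was 10.99 with an exact 95% binomial interval of 8.66 to 14.1, which covers counting error only. In GENCODE v29, 24.0% of its exon bases lie opposite exons of AL671883.2, and without strand in the counting such reads cannot be told apart.

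HLA-C lies on chromosome 6 at 31268749 to 31272086 on the minus strand. It had 1.64, 2.29 and 1.96 CPM in control and 33.8, 25.1 and 40.6 CPM in knockdown. Its log2 fold change was 4.10 (SE 0.187, adjusted p = 1.31e-17 by edgeR), the largest of the 8. The ratio of its summed counts, 53 and 934, was 17.4 (interval 13.2 to 23.4). Per kilobase, HLA-B was above HLA-C in control replicates 1 and 2 and below it in control replicate 3 and in each knockdown library.

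HLA-E, a heavy chain that carries leader peptides of other class I molecules and is recognised by NK cell receptors, started from a higher level. It lies on chromosome 6 at 30489467 to 30494205 on the plus strand. Control libraries had 26.5, 24.9 and 26.9 CPM and knockdown libraries 46.1, 45.6 and 51.9 CPM. The groups were separate and each was tight, and the log2 fold change was 0.88 (SE 0.0728, adjusted p = 5e-11 by edgeR).

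HLA-F, a heavy chain that can reach the surface without peptide, was listed at 0 in all 6 libraries. With 3 counts as the limit that a count of 0 allows, it could have had up to 0.259 to 0.42 CPM in a library, if its reads were counted. In GENCODE v29, 47.5% of the exon bases of its principal transcript are also covered by exons on the other strand, those of HLA-F-AS1 among them, which had 1 count over the 6 libraries. The tables likewise hold 0 in each library for EIF4A1, a helicase needed for translation in all cells, so a 0 in these tables need not mean an absent transcript. How the counting treated such reads is not given in the sources used here, so no level beyond this limit is given for HLA-F.

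The composition of the heavy chain transcripts differed between the groups. Of the counts of HLA-B, HLA-C, HLA-E and HLA-F, HLA-E held 85.3%, 82.3% and 87.7% in control and 41.9%, 48.8% and 40.7% in knockdown. HLA-B held 8.52% ± 2.27 in control and 26.4% ± 1.84 in knockdown, and HLA-C 6.41% ± 1.14 and 29.8% ± 2.58. The shares of the groups did not overlap for any of the 3 genes (exact permutation test over libraries, two-sided, p = 0.1 for each), where 0.1 is the smallest p that 3 against 3 can give. These shares are of counts, not of molecules, and are taken among these 4 genes, not among all class I genes. Summed to 1 feature, the 4 genes rose 3.62-fold (log2 fold change 1.85, SE 0.0801, edgeR adjusted p = 3.65e-18). Heavy chain genes resemble each other, and between 1.7% (HLA-F) and 6.8% (HLA-C) of the 50-base words of their principal transcripts also occur in a transcript of another gene. Reads from such words may be lost or given to another gene, as may reads where the alleles of the line differ from the reference. The share of counts affected is not known.

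**Figure D4:**
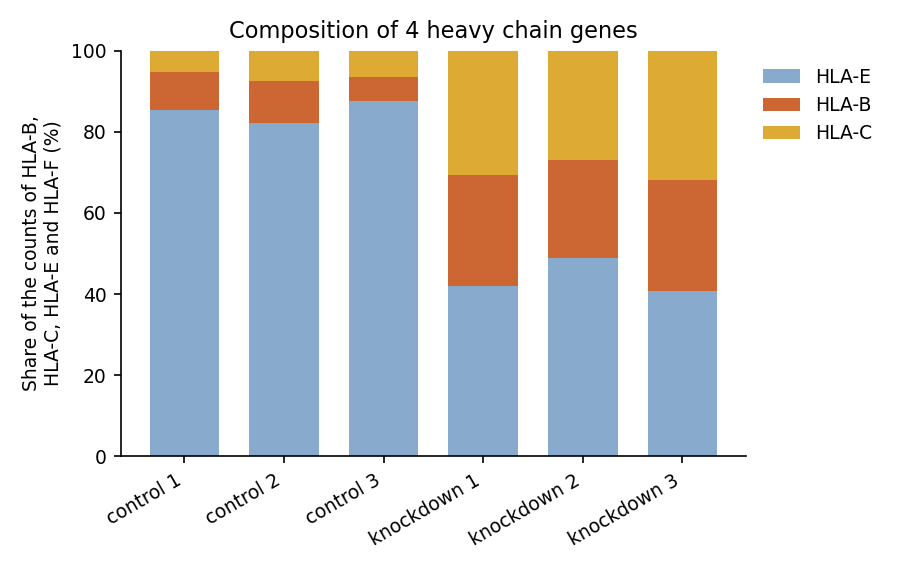
Share of each gene in the summed counts of HLA-B, HLA-C, HLA-E and HLA-F, 1 bar per library; HLA-F is at 0 and does not show. HLA-E takes between 82.3% and 87.7% in the control libraries and between 40.7% and 48.8% in the knockdown libraries.

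B2M, the light chain that every class I molecule needs for a stable fold, was the most abundant member per kilobase of transcript. It lies on chromosome 15 at 44711487 to 44718877 on the plus strand, outside the HLA region. It had 136, 137 and 138 CPM in control and 252, 232 and 245 CPM in knockdown. The control libraries differed by less than 3 CPM, so the 1.78-fold rise stood far outside their spread (log2 fold change 0.83, SE 0.0444, edgeR adjusted p = 9.94e-16). Within libraries, the log2 ratio of B2M counts to the summed counts of the 4 heavy chain genes was 2.15 ± 0.0263 in control and 1.15 ± 0.190 in knockdown. This ratio of light chain to heavy chain counts was lower in each knockdown library (exact permutation test, p = 0.1, adjusted p = 0.12 over 6 ratios).

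TAP1 and TAP2 form the transporter as a heterodimer, and their transcripts differed in level and in rise. TAP1 lies on chromosome 6 at 32845209 to 32853978 on the minus strand. It had 1.73, 2.29 and 1.40 CPM in control and 27.9, 23.6 and 35.3 CPM in knockdown, so that its log2 fold change came to 3.99 (SE 0.182, adjusted p = 1.32e-17 by edgeR). TAP2, nearby at 32821833 to 32838727 on the same strand, had 8.72, 12.1 and 7.01 CPM in control and 51.0, 44.9 and 54.6 CPM in knockdown. Its log2 fold change was 2.43 (SE 0.11, adjusted p = 1.13e-17 by edgeR). Per kilobase too, TAP1 was the scarcer partner in every library, by a smaller fold in each knockdown library. The log2 ratio of TAP1 to TAP2 counts was −2.31, −2.38 and −2.27 in control and −0.87, −0.93 and −0.63 in knockdown, with no overlap (exact permutation test, p = 0.1, adjusted p = 0.12). In GENCODE v29, 80.5% of the exon bases of TAP2 are shared with a readthrough gene on the same strand, AL669918.1, which the count tables do not list, and 15.4% of those of TAP1 with PSMB8-AS1 on the other strand. PSMB8-AS1 had 1 count in control and 16 in knockdown.

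TAPBP (tapasin), which holds empty class I molecules at the transporter until a peptide fits, changed least. It lies on chromosome 6 at 33303573 to 33314212 on the minus strand. It had 119, 130 and 122 CPM in control and 167, 156 and 157 CPM in knockdown. The groups were separate, with a log2 fold change of 0.38 (SE 0.0462, adjusted p = 1.34e-07 by edgeR). Counts of TAPBP exceeded those of TAP1 by 6.08 ± 0.293 on the log2 scale in control and by 2.49 ± 0.295 in knockdown (exact permutation test, p = 0.1, adjusted p = 0.12).

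NLRC5, the transactivator that other members depend on for part of their transcription, was at the edge of detection in control cells. It lies on chromosome 16 at 56989498 to 57083524 on the plus strand. It had 6, 4 and 3 counts in control and 53, 38 and 80 in knockdown, or 0.518, 0.457 and 0.420 CPM against 5.55, 4.42 and 8.23 CPM. The log2 fold change was 3.66 (SE 0.327, adjusted p = 2.69e-10 by edgeR). Since NLRC5 passed the filter on low counts only through the knockdown libraries, this call is no independent sign of a rise. With 13 counts over the control libraries, the ratio of summed counts, 12.97, has a wide interval of 7.38 to 24.9. The size of this rise is the least precisely known of the 8.

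Other ratios were compared in the same way. The log2 ratio of HLA-E to HLA-B was 3.33 ± 0.447 in control and 0.73 ± 0.243 in knockdown, and that of HLA-B to HLA-C 0.38 ± 0.465 and −0.17 ± 0.031. Neither pair overlapped between groups (exact permutation test, p = 0.1, adjusted p = 0.12 for each). Since 0.1 is the smallest p that 3 against 3 can give, no ratio could pass 0.05. The difference in the HLA-B to HLA-C ratio, −0.55, was −0.33 without control replicate 1 and −0.80 without control replicate 3. For TAP1 and PSMB9, the neighbours with a common promoter stretch, the log2 ratio was 4.51 ± 0.799 in control and 3.74 ± 0.312 in knockdown, and the groups overlapped (exact permutation test, p = 0.3, adjusted p = 0.3). That difference, −0.77, was −0.34 without control replicate 2 and −1.13 without control replicate 1. PSMB9 had 1 count over the control libraries, so that its ratio is poorly known. The planned ratio of HLA-F to HLA-B was not formed, since HLA-F was at 0.

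Per kilobase of principal transcript, the order of the levels was compressed in knockdown cells. In control, B2M (80.1 CPM per kb) and TAPBP (65.4) were followed by HLA-E (10.04), TAP2 (3.72), HLA-B (1.69), HLA-C (1.28), TAP1 (0.610) and NLRC5 (0.0682). Neighbours in that order were separate in all libraries except HLA-B and HLA-C, which overlapped. In knockdown, B2M (142) and TAPBP (84.9) again led and TAP1 (9.77) and NLRC5 (0.889) were again last. Between them HLA-C (21.6), TAP2 (20.1), HLA-B (19.0) and HLA-E (18.4) had overlapping ranges over libraries. Within each knockdown library, HLA-C was above HLA-B and TAP2 above HLA-E, while the other pairs among these genes changed order between libraries. These levels rest on the length of 1 principal transcript per gene.

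Among the knockdown libraries, replicate 2 had the lowest CPM of all 8 tested members, and replicate 3 the highest for 6 of them. The same was seen in interferon-stimulated genes outside antigen presentation: of 34 genes of such a list that rose, 30 were lowest in replicate 2, while 29.9% of all genes tested were. The part of this library difference in the results was not tested, but leaving out either replicate kept all 8 members called. Among them, NLRC5 passed the filter on low counts only through the knockdown libraries.

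Of 11 tested genes of peptide loading, trimming and folding outside the members, 3 (27.3%) rose, 1 (9.09%) fell and 7 were not called. These counts are within 2 genes of what would match the 15.3% and 18.1% of all genes tested, and the median log2 fold change was 0.05. ERAP2 and ERAP1, the peptide-trimming aminopeptidases, rose from 7.03 ± 0.563 to 18.9 ± 3.29 CPM and from 81.1 ± 2.93 to 105 ± 8.58 CPM (log2 fold changes 1.45 and 0.38). The lectin chaperone CANX rose by 0.11 on the log2 scale, a call lost on leaving out any of 5 libraries (every library but control replicate 3; edgeR adjusted p up to 0.122). UGGT1, which senses misfolded glycoproteins, fell from 237 ± 3.93 to 206 ± 3.26 CPM. CALR and PDIA3, the calreticulin and ERp57 of the loading complex, differed by −0.03 and −0.02 on the log2 scale (adjusted p = 0.575 and 0.815 by edgeR); both were picked for mention with their values known.

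All 5 genes (100%) of the immunoproteasome and the PA28 activator rose, beside 15.3% of all genes tested. Their median log2 fold change was 0.49. PSMB8, an inducible catalytic subunit, rose from 2.33 ± 0.316 to 13.9 ± 2.32 CPM (log2 fold change 2.56). PSMB9, another, had 1 count in control and 62 in knockdown, a ratio of 61.1 with an interval of 10.6 to 2453. It passed the filter only through the knockdown libraries, so that it had to differ. The PA28 subunits PSME1 and PSME2 rose by 0.46 and 0.49. DESeq2 called 3 of the 5: PSMB10 missed (log2 fold change 0.32, edgeR adjusted p = 0.0192), and PSMB9 received no adjusted p. Of 3 constitutive catalytic subunits, 2 (66.7%) were called higher, beside the same 15.3%. PSMB6 and PSMB7 rose by 0.15 and 0.12, each call lost without any of 4 libraries: control replicate 1, knockdown replicates 1 and 2, and control replicate 3 (PSMB6) or 2 (PSMB7). DESeq2 called neither, PSMB7 also lost its call with no filter, and the groups overlapped for PSMB6. Of 5 tested cytosolic peptidases that trim peptides, 3 (60%) rose and 1 (20%) fell, beside 15.3% and 18.1% of all genes tested. THOP1 and BLMH rose by 0.20 and 0.16 on the log2 scale. Leucine aminopeptidase LAP3 rose from 64.0 ± 2.2 to 114 ± 1.52 CPM and TPP2 fell from 129 ± 3.10 to 104 ± 2.92 CPM.

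**Figure D5:**
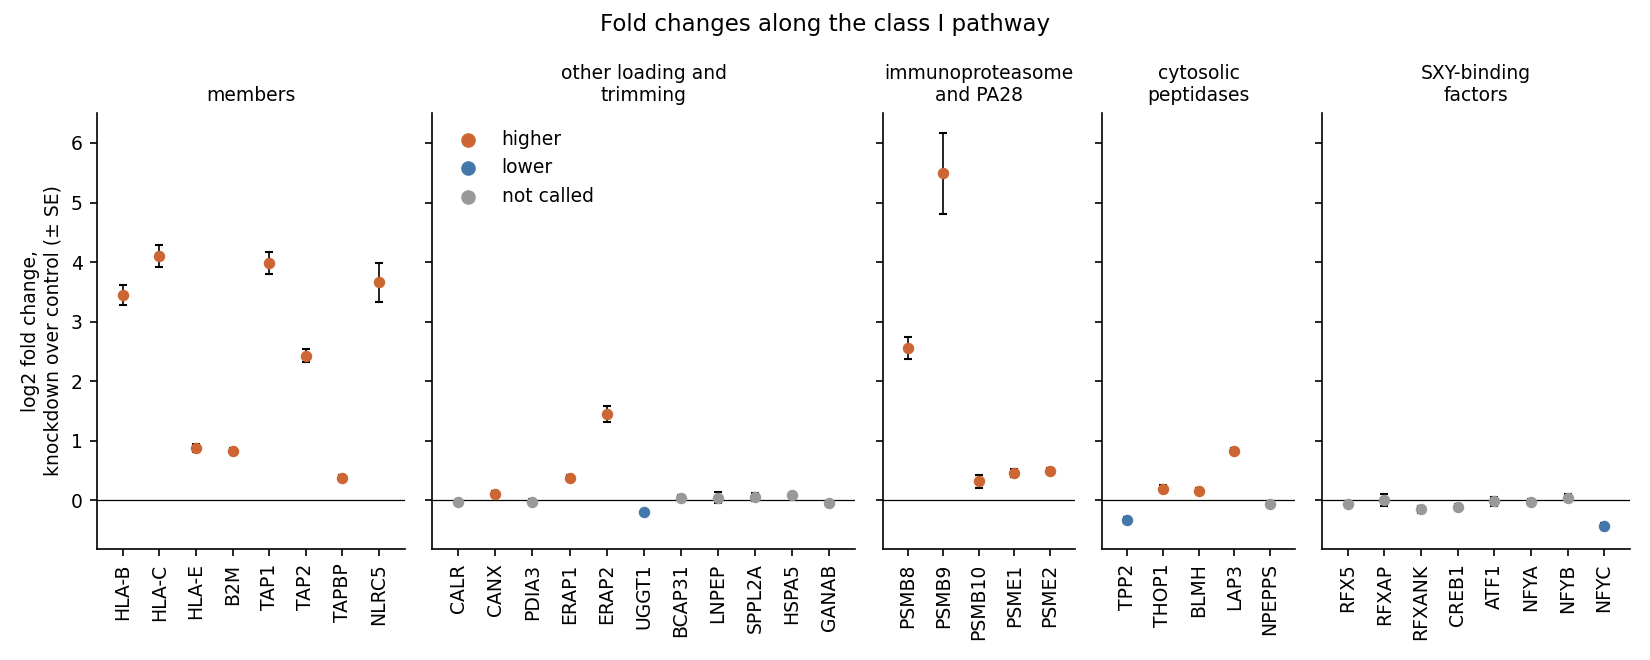
Log2 fold change, knockdown over control, with its SE, for the tested members and 4 lists of the class I pathway. Orange points were called higher, blue points lower and grey points not called (edgeR adjusted p under 0.05); large rises stand among the members, PSMB8, PSMB9 and ERAP2, while 7 of the 8 SXY-binding factors were not called and NFYC (−0.43) was lower.

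Of 8 tested SXY-binding factors, which NLRC5 joins on class I promoters, the count of higher genes was 0 (0 with edgeR, also 0 without adjustment of p, and 0 with DESeq2 and with limma-voom), and 1 fell: NFYC, an NF-Y subunit, from 93.2 ± 1.52 to 69.3 ± 2.94 CPM (log2 fold change −0.43, edgeR adjusted p = 4.65e-08). With 8 genes, a count of 0 higher and 1 lower (12.5%) is near the 15.3% and 18.1% of all genes tested. Without adjustment of p, 3 factors were lower by edgeR, NFYC, RFXANK and CREB1. RFXANK and CREB1 differed by −0.15 and −0.11 with separate groups (edgeR adjusted p = 0.0607 and 0.0631). RFX5, picked for mention with its values known, differed by −0.06 (adjusted p = 0.344 by edgeR). Of 9 tested interferon and NF-kB factors, 5 (55.6%) rose and 1 (11.1%) fell, beside 15.3% and 18.1% of all genes tested. The other 3, IRF2, NFKB2 and RELB, were not called, and the median log2 fold change was 0.2. IRF9, the DNA-binding part of the ISGF3 complex, rose from 10.3 ± 0.696 to 92.3 ± 9.32 CPM. IRF1, which binds class I ISREs, rose from 4.79 ± 0.637 to 13.6 ± 1.63 CPM. STAT2 rose by 0.29 on the log2 scale, and NFKB1 fell from 48.2 ± 0.477 to 39.8 ± 0.219 CPM.

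Of 42 tested genes that lie in the HLA region on 6p21 but have no role in antigen presentation, 6 (14.3%) rose and 7 (16.7%) fell, near the 15.3% and 18.1% of all genes tested, and their median log2 fold change was 0.00. RING1, a polycomb subunit, rose from 40.2 ± 3.14 to 48.8 ± 1.45 CPM, and ABCF1 fell from 136 ± 6.49 to 107 ± 2.58 CPM. POU5F1 and PBX2 fell by 0.37 and 0.19 on the log2 scale. The count of 6 became 3 without control replicate 2 or knockdown replicate 2, and by DESeq2.

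The genes whose pattern over the 6 libraries was most like the mean of the 8 tested members were IRF7, DDX60L, PSMB8, DDX60 and PARP10. The measure was the root mean square difference of log2 CPM, centred on the control mean, among 11640 tested genes outside the members with a mean of 5 CPM or more. It was 0.0776 for IRF7, the factor that amplifies interferon transcription, and 0.131 for PARP10. IRF7 rose from 9.63 ± 0.796 CPM to 51.0 ± 5.04 CPM. The mean profile of the members stood at 2.37, 2.14 and 2.56 in knockdown replicates 1 to 3, and that of IRF7 at 2.48, 2.21 and 2.44. With libraries of only 2 groups, likeness can rest on a similar size of difference alone.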

How the data were processed

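RNA of AF22 cells was sequenced in 3 control and 3 knockdown libraries, grouped by sample title. Per the submitters' processing notes, Trim Galore 0.6.6, STAR 2.7.10a, bedtools and the build hg38 were used. How reads were counted, with which strand option and gene annotation, was not given in the sources used here. Whole-number, unnormalised read counts per gene symbol were deposited. Totals were 7294687 to 11579849 counts per library, and 3 counts equal 0.259 to 0.42 CPM.

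With edgeR 4.0.16 in R 4.3.3, filterByExpr (minimum count 10) kept 13632 genes, which were then scaled by TMM (factors 0.9797 to 1.015). Knockdown was compared with control by the quasi-likelihood test without covariates, adjusted by Benjamini-Hochberg over all genes tested (threshold 0.05). The SE is the log2 fold change divided by the square root of F. Ratios within libraries had 0.5 added to each count. Intervals and floors cover counting error only. The test was checked on simulated data.

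The members and lists were chosen with earlier results of these data known. All members are named. Of each other list, up to 4 called genes with the smallest adjusted p are named by rule, with the best call in the lesser direction, or the most abundant gene where none was called, and part of these appear in the text. Lists are described by counts and medians, without a set test. Some genes of these lists are not reported here. As alternatives, 3 other scalings (upper-quartile, RLE, library size), 2 other filters, limma-voom 3.58.1, DESeq2 1.42.0, a block for the replicate number, the omission of each library in turn, and a threshold of 0.01 were tried. Replicate pairs differed by more than sampling noise (chi-square per degree of freedom 1.23 to 1.994), so each library was counted once. Gene positions are from GENCODE v29 and promoters from RefSeq. Figures used Python 3.11.15 and Matplotlib 3.10.9.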

Additional observations from a re-analysis of the deposited data

How the results depend on the processing

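The 8 tested members kept their direction and their call under each of 14 alternative fits and at an adjusted p under 0.01, and their log2 fold changes stayed within 3.30 to 3.60 (HLA-B), 3.93 to 4.26 (HLA-C), 0.82 to 0.91 (HLA-E), 0.81 to 0.86 (B2M), 3.82 to 4.17 (TAP1), 2.30 to 2.65 (TAP2), 0.35 to 0.42 (TAPBP) and 3.37 to 3.83 (NLRC5). The largest adjusted p was 5.03e-06, for TAPBP. For NLRC5, which passed the filter on low counts only through the knockdown libraries, a kept call is no independent sign of a rise. The count of all genes higher in knockdown, 2084, was 1170 by DESeq2, 1224 at an adjusted p under 0.01, and 1606 to 1964 on leaving out 1 library. The count of genes lower in knockdown (2461) exceeded that of genes higher in knockdown (2084), an order that turned with library-size scaling (2188 lower, 2505 higher) and was nearly even with upper-quartile scaling (2328 and 2298). Immunoproteasome genes higher were 3 by DESeq2. Genes of the 6p21 region higher were 3 by DESeq2 and 3 at an adjusted p under 0.01, and 3 to 8 on leaving out 1 library. Class I-like genes higher were 0 by DESeq2, by limma-voom and at an adjusted p under 0.01, and 0 to 1 on leaving out 1 library. CD68, a leukocyte marker not called in any setting, ranged from −0.28 to 0.04 on the log2 scale on leaving out 1 library and changed sign without control replicate 1. The cause of these changes was not tested. The labels do not say that a replicate number marks a shared culture or day. Deviations of same-numbered libraries from their group means correlated by 0.124, 0.021 and 0.145 over 11647 genes, and 4 of the 6 libraries correlated best with their own number. With the replicate number as a block, 2458 genes were higher and 2790 lower, and the 8 members kept their calls. Leaving out single libraries, added after the data were seen, turned no difference in heavy chain shares or in ratios, but moved the ratios HLA-B to HLA-C (−0.80 to −0.33) and TAP1 to PSMB9 (−1.13 to −0.34) by over 1.5 times. Low control counts limit the precision of NLRC5, TAP1, HLA-C, HLA-B and PSMB9.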

Other observations

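Class II genes, whose products present peptides to helper T cells, were mostly at or near 0. Of 10 such genes, HLA-DRA, HLA-DQA1, HLA-DQB1 and CIITA, the class II counterpart of NLRC5, were listed at 0 in all 6 libraries, and 4 genes were tested. CD74, the invariant chain, rose from 9.31 ± 1.30 CPM to 11.9 ± 0.589 CPM (SD over 3 libraries), or by 0.38 (adjusted p = 0.0231 by edgeR), a call lost without control replicate 1 or knockdown replicate 3 (adjusted p up to 0.199) and by DESeq2 (adjusted p = 0.117). The other 3 tested genes, HLA-DPB1, HLA-DMA and HLA-DMB, were picked for mention with their values known and were not called (edgeR adjusted p = 0.485, 0.0661 and 0.488).

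Of 5 tested class I-like genes, 1 was called higher and 1 lower, shares near the 15.3% and 18.1% of all genes tested. MICB, a stress ligand of the NK receptor NKG2D, had 17, 20 and 14 counts in control and 7, 7 and 5 in knockdown, or 1.91 ± 0.412 and 0.687 ± 0.155 CPM. It passed the filter on low counts only through the control libraries, so that it had to differ, and its call as lower (adjusted p = 0.00231 by edgeR) is no independent sign of a fall. ULBP1, another ligand of that receptor, stood at 12.99 ± 1.45 CPM in control cells and at 16.5 ± 3.74 CPM after knockdown. Its call as higher (edgeR adjusted p = 0.0444) was lost without control replicate 2, control replicate 3 or knockdown replicate 3 (adjusted p up to 0.396), by DESeq2 and by limma-voom, and its groups overlapped.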
